A study of Mus musculus with 2 samples.

Results

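The collagens are the fibrous and network-forming proteins of the extracellular matrix, and their genes were followed here in epiblast stem cells obtained by 2 routes. A gene was taken as a collagen gene where its name on the array had the form Col, type number, a, chain number, which gave 44 of the 34650 genes on the array. Each gene was represented by the brightest of its probes that stood well above background on at least 1 array. They were grouped by the type of chain into 11 fibrillar collagens, the 6 chains of type IV (the basement membrane collagen) and 27 others.

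The cells of both groups were derived from E14Tg2A, a line of mouse embryonic stem (ES) cells of strain 129/Ola that is normally grown in serum with LIF. EpiSC were ES cells transferred directly to a defined minimal medium with N2 and B27 that held FGF2 at 12 ng/mL and Activin A at 20 ng/mL, and ELA-EpiSC received the same factors after the ES cells had first formed Epiblast-Like Aggregates (ELA), the floating clusters that appear when serum and LIF are withdrawn. The comparison therefore asked whether EpiSC made directly and EpiSC made through ELA differed in their RNA. RNA of 3 independent experiments was pooled in each group and measured on 1 array, so no test and no culture error could be computed, and all values describe these 2 pools of 1 cell line. The title, description and molecule fields of the EpiSC sample give total RNA of FGF2 and Activin A treated cells, whereas its source field names an Argonaute immunoprecipitate, and the source fields of both samples give cells before differentiation. The groups follow the titles.

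A collagen molecule is made of 3 chains wound into a triple helix. Some types are built from copies of 1 chain and others need chains from different genes. The fibrillar types I, III and V assemble into mixed fibrils in most connective tissues, and types II, XI and IX assemble together in the fibrils of cartilage. Type IV forms the sheet-like network of basement membranes on which epithelia rest, the epiblast among them, and is produced in large amounts by parietal endoderm. Type VII forms fibrils that anchor an epithelium to the stroma below it, type VI forms beaded filaments, and the FACIT collagens (types IX, XII, XIV, XVI, XIX, XX and XXII among them) attach to the surface of other fibrils. Chains are hydroxylated and folded in the endoplasmic reticulum, secreted as procollagens, trimmed at their ends by proteases and cross-linked outside the cell.

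Signal is given throughout as log2 of the background-corrected, quantile-normalized brightness of a probe, and a difference is ELA-EpiSC minus EpiSC on that scale. Probes bind with different efficiency, so levels were compared between the arrays probe by probe, and sums over a list of markers are given only beside the gene that carries them. The spread of a difference over spots, from 234 probes printed 10 times, was 0.10 (SD), a measure of spot noise that leaves out labelling and culture. Only probes detected on both arrays with a mean level of at least 7.5 entered it, so the noise of dim probes was not measured. Detected probes made up 65.9% of the EpiSC array and 65.0% of the ELA-EpiSC array. Both arrays lay on 1 slide read in 1 scan. The epiblast genes Pou5f1 (14.27 in EpiSC and 14.47 in ELA-EpiSC) and Fgf5 (15.18 and 15.35) were bright on both arrays. The 8 of 10 RNA spike-in probes that were detected read between 0.25 and 0.86 lower on the ELA-EpiSC array after normalization, and scaling the arrays to them added 0.53 to every difference given below.

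Transcripts of 38 of the 44 collagen genes were detected on at least 1 array, against 74.6% of all genes. Col4a3, Col6a6, Col10a1, Col13a1, Col24a1 and Col28a1 were not well above background on either array. Of the 38 genes, 30 were detected on both arrays through the probe chosen. Only 18 reached a mean level of 7.5, the minimum used for counting, and the other 20 were dim. The dim genes are described as well, but the background offset of 50 compressed their differences.

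**Figure D1:**
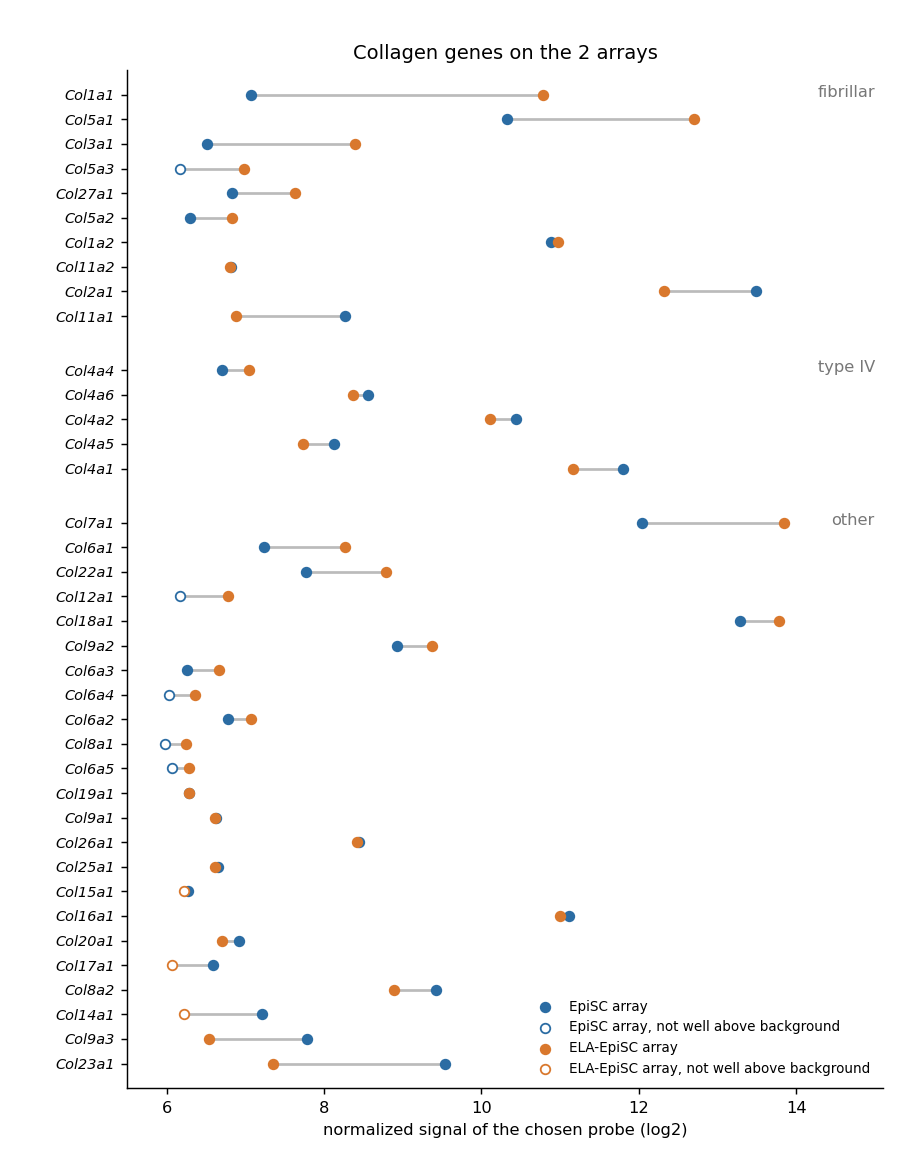
Normalized signal (log2) of the chosen probe of each of the 38 detected collagen genes on the EpiSC array (blue) and the ELA-EpiSC array (orange), 1 array each, with open circles where the probe was not well above background. The widest gap was that of Col1a1, from 7.07 to 10.79, while the 5 type IV chains lay close together on the 2 arrays; levels of different genes come from different probes and are not comparable.

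Of the 18 collagen genes past the minimum, 5 were higher in ELA-EpiSC by at least 1 (27.8%, against 4.61% of all 16649 genes past the minimum) and 3 were higher in EpiSC by at least 1 (16.7%, against 4.41%). The genes higher in ELA-EpiSC were Col1a1, Col5a1, Col7a1, Col6a1 and Col22a1, and those higher in EpiSC were Col23a1, Col11a1 and Col2a1. The minimum was set on the mean of both arrays, for these and for all genes. Col1a1 (7.07) and Col6a1 (7.24) were under 7.5 in EpiSC and passed only through ELA-EpiSC. Col11a1 (6.88) and Col23a1 (7.35) were under it in ELA-EpiSC and passed only through EpiSC. The counts thus depend in part on the array where a gene was high. The remaining 10 differed by less than 1. A difference above 0 was seen in 8 of the 18 genes, against 50.7% of all genes, and their median difference was -0.07, against 0.01 over all genes. That median was 0.46 under the spike-in scaling and 0.12 under scaling to the median, where all genes had 0.54 and 0.15. The collagens thus did not shift together in one direction, and the differences were spread over a range from -2.19 to 3.72, where the central 95% of all genes lay between -1.31 and 1.37. Among the dim genes 2 more were past 1, Col3a1 higher in ELA-EpiSC and Col9a3 higher in EpiSC. Col1a1, Col5a1, Col3a1, Col7a1 and Col23a1 were past 1 under each of 13 alternative processings, whereas the other 5 genes past 1 were under it in at least 1 of them.

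**Figure D2:**
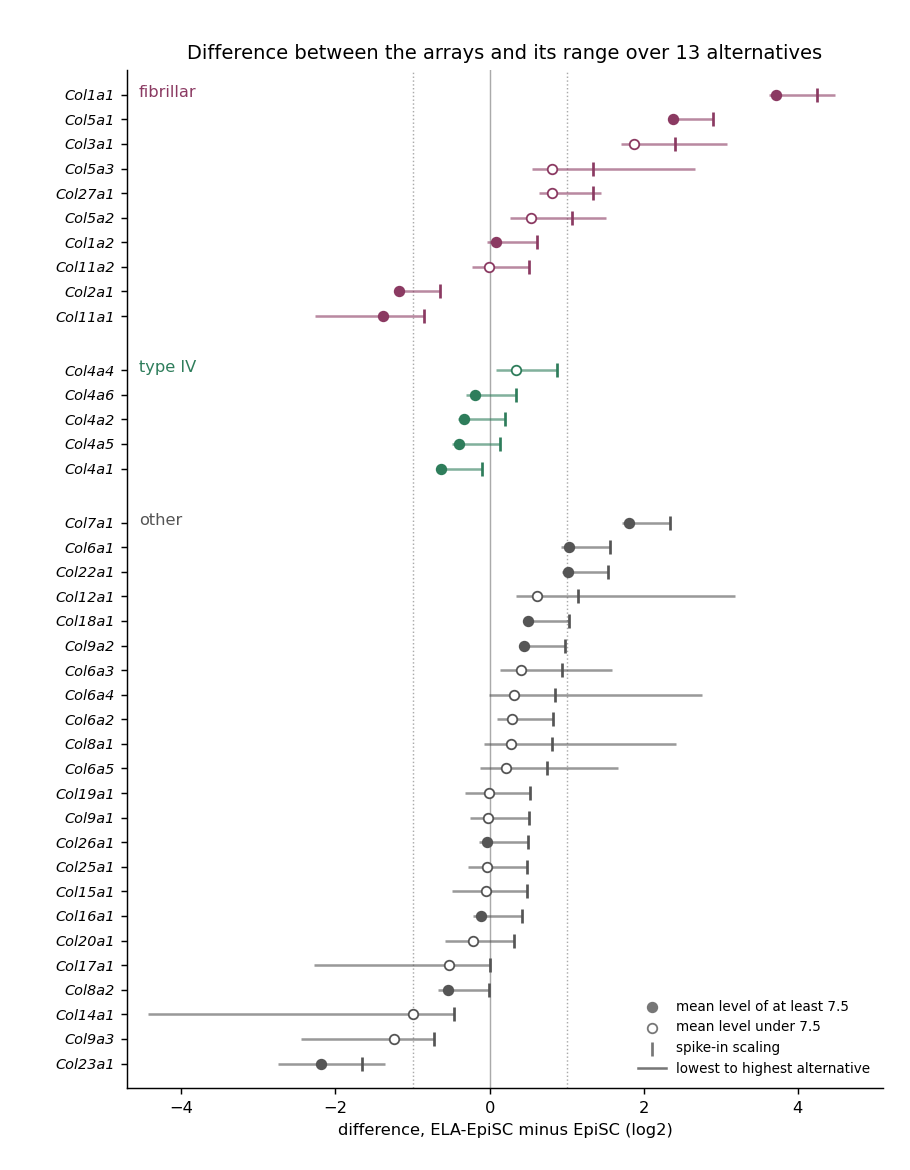
Difference between the arrays (log2, ELA-EpiSC minus EpiSC) of the 38 detected collagen genes; circles show the reported value, filled for a mean level of at least 7.5, lines the lowest and highest value over 13 alternative processings, and ticks the spike-in scaling. Col1a1 at 3.72, Col5a1 at 2.37 and Col7a1 at 1.80 stayed above 1 in each alternative, and the lines of 16 genes crossed 0, each with a reported value under 1 in size, although some of these lines reach past 1.

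The stretches that lie directly upstream of the genes are shown for the 5 members furthest from 0 that have a window in the RefSeq promoter table (assembly GRCm38.p6), since they include genes higher on either array. Windows of 35 of the 44 genes were in the table. Each sequence is the 250 bases before the annotated start, written 5′ to 3′ on the gene's own strand, which is the plus strand for all 5. Capitals mark matches on either strand to any of 4 short motifs, none of which overlapped another here. The first is the TATA box, searched as TATAAA, which places the start of transcription. The second is the CCAAT box, bound by the factor NF-Y and searched with those letters. The third is the GC box, bound by the factor Sp1 and searched as GGGCGG, and the last is the AP-1 motif, bound by Fos and Jun proteins and searched as TGANTCA. The first 3 genes were higher in ELA-EpiSC and the last 2 higher in EpiSC.
Col5a1 (chr2:27886175-27886424): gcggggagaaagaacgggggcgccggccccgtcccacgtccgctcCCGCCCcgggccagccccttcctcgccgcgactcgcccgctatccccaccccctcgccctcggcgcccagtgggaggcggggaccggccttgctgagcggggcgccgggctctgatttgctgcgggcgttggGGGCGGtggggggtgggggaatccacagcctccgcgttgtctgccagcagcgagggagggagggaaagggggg
Col3a1 (chr1:45311288-45311537): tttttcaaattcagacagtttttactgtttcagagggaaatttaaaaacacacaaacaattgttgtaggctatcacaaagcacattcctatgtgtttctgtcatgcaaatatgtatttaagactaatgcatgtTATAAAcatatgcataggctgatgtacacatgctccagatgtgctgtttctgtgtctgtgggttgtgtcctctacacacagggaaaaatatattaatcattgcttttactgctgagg
Col7a1 (chr9:108953336-108953585): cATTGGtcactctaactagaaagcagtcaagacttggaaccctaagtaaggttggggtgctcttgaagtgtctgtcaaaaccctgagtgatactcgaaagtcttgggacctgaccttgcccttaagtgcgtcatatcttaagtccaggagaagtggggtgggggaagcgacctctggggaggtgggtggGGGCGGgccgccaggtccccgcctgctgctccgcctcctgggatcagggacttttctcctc
Col11a1 (chr3:114030290-114030539): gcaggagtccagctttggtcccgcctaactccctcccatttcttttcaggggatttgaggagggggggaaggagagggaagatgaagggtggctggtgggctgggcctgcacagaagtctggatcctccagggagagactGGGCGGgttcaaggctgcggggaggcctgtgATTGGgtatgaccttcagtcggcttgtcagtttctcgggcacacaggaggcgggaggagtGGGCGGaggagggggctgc
Col23a1 (chr11:51289670-51289919): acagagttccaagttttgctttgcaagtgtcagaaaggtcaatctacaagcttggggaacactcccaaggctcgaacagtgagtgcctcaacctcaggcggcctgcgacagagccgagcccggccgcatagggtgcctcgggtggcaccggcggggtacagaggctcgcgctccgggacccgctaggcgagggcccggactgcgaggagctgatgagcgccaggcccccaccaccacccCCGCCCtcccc

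Col3a1 was the only one of the 5 with a TATAAA match in this window and had no GC box. The match lies near the middle of the window and not next to the annotated start. The other 4 genes each had 1 or 2 GC boxes, whichever array was the brighter. Col7a1 and Col11a1, which differed in opposite directions, each had 1 CCAAT motif and at least 1 GC box. Over the 38 windows of the 35 collagen genes, a GC box was present in 57.9% (32.7% of all 32851 windows), a CCAAT box in 34.2% (33.8%), a TATA box in 13.2% (12.4%) and an AP-1 motif in 2.63% (6.75%), the last in Col6a1 alone. A match is a description of the letters and says nothing about binding.

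Of the fibrillar collagens, 10 of 11 were detected and 5 passed the minimum, of which 2 were past 1 in each direction. Col1a1, the alpha-1 chain of type I collagen, read 7.07 in EpiSC and 10.79 in ELA-EpiSC, differing by 3.72 or 13.2-fold. Its unnormalized spot brightness was 97.7 and 1929. Of all 16649 genes only 6 had a larger difference in this direction, and the value ranged from 3.63 to 4.48 over the alternatives. The array's single Col1a1 probe lies on chromosome 11 (mm9, chr11:94813115-94813174), and no exon or UTR annotation of that build was used here. Its partner Col1a2, the alpha-2 chain that completes the usual type I trimer, read 10.89 in EpiSC and 10.97 in ELA-EpiSC. That difference of 0.08 was within the spot SD, and its sign turned under the processed signal (-0.03). The gap between the differences of the paired chains was 3.64 (3.55 to 4.51 over the alternatives). The paired chains of type I collagen thus differed unequally between the pools.

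Col3a1, the sole chain of type III collagen, read 6.52 in EpiSC and 8.40 in ELA-EpiSC, differing by 1.88 or 3.68-fold. With a mean level of 7.46 it fell just short of the minimum and was not counted. Col5a1, the main chain of type V collagen, which starts type I fibrils, read 10.32 in EpiSC and 12.70 in ELA-EpiSC, differing by 2.37 or 5.18-fold. Its brightness was 1122 and 7205, and 86 genes had a larger difference in the same direction. The probe lies at chr2:27892892-27892951 (mm9). Its partner Col5a2 was dim on both arrays (6.29 and 6.83, differing by 0.53). The remaining type V chain, Col5a3, was detected in ELA-EpiSC only, at 6.99. It was at least 1.76-fold above EpiSC in the reported processing, and its difference ranged from 0.55 to 2.66 over the alternatives. Its direction follows from its detection on 1 array, so only Col5a1 and Col5a2 could be compared on both.

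Col3a1 and Col5a2 are neighbours on chromosome 1, and both were higher in ELA-EpiSC, by 1.88 and 0.53. The genes of the co-assembling types I, III and V thus differed to unlike degrees, from 0.08 for Col1a2 to 3.72 for Col1a1. Col27a1, a fibrillar chain outside these fibrils, was dim and read 6.83 and 7.64.

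The co-assembling types II, IX and XI had 3 genes past 1 in the opposite direction, Col2a1, Col11a1 and Col9a3, of which Col9a3 was below the minimum. Col2a1, the sole chain of type II collagen, read 13.50 in EpiSC and 12.32 in ELA-EpiSC, differing by -1.17 or 2.25-fold. Col11a1, a chain of type XI collagen, read 8.27 and 6.88, differing by -1.39 or 2.61-fold. Its partner Col11a2 was level at 6.81 and 6.80. Under the spike-in scaling both differences fell under 1 in size, to -0.64 for Col2a1 and -0.86 for Col11a1, without a change of sign. Of the type IX chains, which coat type II fibrils, Col9a3 was dim and higher in EpiSC (7.78 and 6.53, differing by -1.25), Col9a1 was dim and level (6.63 and 6.61), and Col9a2 was somewhat higher in ELA-EpiSC (8.93 and 9.37, differing by 0.44). The chains of types II, IX and XI therefore did not move as a unit. Over the 5 fibrillar genes past the minimum the median difference was 0.08, and over all 10 detected it was 0.67.

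Type IV collagen, the collagen of basement membranes, differed little. The 4 chains past the minimum were all lower in ELA-EpiSC, none of them by 1, and their median difference was -0.36. That sign depended on the scaling, since under the spike-in scaling the median was 0.17 and Col4a2, Col4a5 and Col4a6 turned positive. Col4a1, the most widespread type IV chain, was the best measured of all collagens, since its probe is printed 10 times on each array (mm9, chr8:11199009-11199068). It read 11.80 ± 0.14 in EpiSC and 11.16 ± 0.15 in ELA-EpiSC (SD over 10 spots of 1 array). The 10 EpiSC spots lay between 11.55 and 11.98 and the 10 ELA-EpiSC spots between 10.91 and 11.35, so the 2 sets did not overlap. The difference at the same spot position was -0.64 ± 0.08 and was negative at all 10 positions. This spread is technical, and under the spike-in scaling the difference was -0.11, close to the spot SD.

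**Figure D3:**
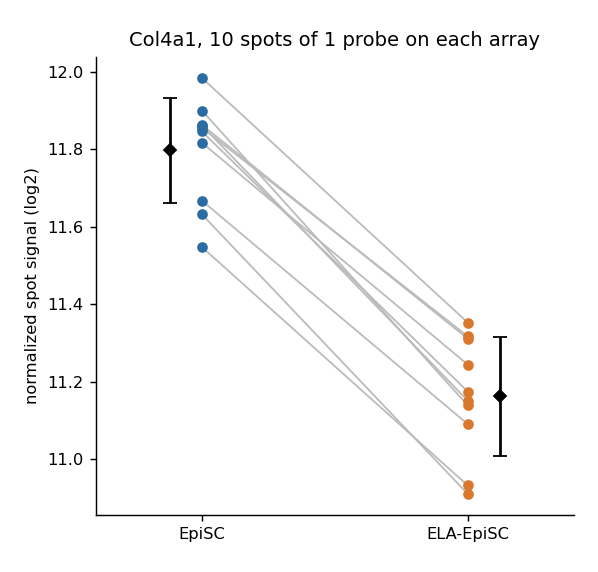
Normalized signal (log2) of the 10 spots of the Col4a1 probe on the EpiSC array and the ELA-EpiSC array; lines join the same spot position and diamonds with bars give mean ± SD over the 10 spots of 1 array. All 10 lines go down, from 11.80 ± 0.14 to 11.16 ± 0.15.

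Col4a2, which joins Col4a1 in the common trimer and lies beside it on chromosome 8 in the opposite orientation, read 10.44 in EpiSC and 10.11 in ELA-EpiSC, differing by -0.33. Col4a5 and Col4a6, a similar pair on the X chromosome, read 8.12 and 7.73 (-0.39) and 8.56 and 8.36 (-0.19), and the second Col4a6 probe gave -0.28. Within each pair the difference of one chain from the other was small, -0.30 for Col4a1 against Col4a2 (-0.32 to -0.24 over the alternatives) and -0.20 for Col4a5 against Col4a6 (-0.27 to -0.12). The last neighbouring pair, Col4a3 and Col4a4, was dim or not detected. Col4a4 read 6.70 and 7.04, and a second Col4a4 probe, detected in EpiSC only, read 6.41 and 6.25, the opposite sign.

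Col7a1, the anchoring fibril collagen, read 12.04 in EpiSC and 13.85 in ELA-EpiSC, differing by 1.80 or 3.49-fold. Its brightness was 3809 and 15648, and 1.18% of all genes had a larger difference in this direction. The value held between 1.72 and 2.33 over the alternatives, and the single probe lies at chr9:108886861-108886920 (mm9). Type VII collagen is made of copies of this 1 chain, so no partner is needed.

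Type VI collagen is usually built from the chains Col6a1, Col6a2 and Col6a3. Col6a1 read 7.24 in EpiSC and 8.27 in ELA-EpiSC, differing by 1.03 or 2.04-fold, just past the threshold (0.92 to 1.56 over the alternatives). Its neighbour on chromosome 10, Col6a2, was dim at 6.78 and 7.08, and Col6a3 was dim at 6.25 and 6.66. Col6a4 and Col6a5 were detected in ELA-EpiSC only, by less than 1.5-fold. The 3 chains detected on both arrays differed by 0.30 to 1.03. The direction of Col6a4 and Col6a5 follows from their detection on 1 array, and both turned negative under the scaling to the 75th percentile.

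Among the FACIT collagens, all 9 were detected and 3 passed the minimum. Col22a1, known from tissue junctions such as that of muscle and tendon, read 7.77 in EpiSC and 8.79 in ELA-EpiSC, differing by 1.01 or 2.02-fold. It was past 1 in 10 of the 13 alternatives. Col16a1 was level (11.11 and 11.00). Col12a1 was detected in ELA-EpiSC only, at 6.78, at least 1.54-fold above EpiSC. Col14a1 gave unlike answers with its 2 probes: the brighter read 7.22 in EpiSC and was not well above background in ELA-EpiSC, at least 1.99-fold lower, and the other was detected on both arrays at 6.66 and 6.65. Col19a1 and Col20a1 were dim, with differences of -0.01 and -0.22.

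Col23a1, a transmembrane collagen, had the largest difference in favour of EpiSC. It read 9.54 in EpiSC and 7.35 in ELA-EpiSC, differing by -2.19 or 4.55-fold, and 0.871% of all genes were further in this direction. Its brightness was 648 and 143, at chr11:51396885-51396944 (mm9). A second probe detected on both arrays gave -1.44 (8.60 and 7.17) and the last, detected in EpiSC only, gave -0.46, so the sign was shared by all 3 probes and the size was not. The transmembrane collagens Col17a1 and Col25a1 were dim. Col17a1 was detected in EpiSC only (6.59), and Col25a1 was level at 6.65 and 6.61.

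The remaining members differed by less than 1. Col18a1, the precursor of endostatin and a basement membrane component, was bright at 13.28 and 13.78 (0.50), and its second probe gave 0.82. Its relative Col15a1 was at the detection limit (6.27 and 6.22). Col8a2, a short chain network collagen, read 9.42 and 8.89 (-0.53), whereas its dimmer probe gave 6.31 on both arrays, and its partner Col8a1 was detected in ELA-EpiSC only by less than 1.5-fold. Col26a1 was level at 8.45 and 8.42. The 27 other collagens thus held 23 detected genes, of which 9 passed the minimum with a median difference of 0.44. Over all 23 the median was -0.01.

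The chosen probe of 8 of the 38 genes was detected on 1 array only, although another probe of Col14a1 was detected on both. That of 5 was detected in ELA-EpiSC only (3.16% of all detected genes) and that of 3 in EpiSC only (4.27%). The direction of all 8 follows from that detection. None of these 8 reached a level of 7.5 on either array, and 3 of them had a bound above 1.5-fold. In 9 genes at least 2 probes were measured above background on the pair of arrays, and the probes shared their sign in 8 of them, the exception being Col8a2. The same share over all genes was not computed. A shared sign says little where the values lay within the spot SD, itself taken from brighter probes, as for Col25a1 (-0.04 and -0.01). Col4a4, whose second probe was detected in EpiSC only, is not among the 9.

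The machinery that folds, trims and cross-links collagen was followed in 5 lists of 64 genes, all on the array, of which 41 passed the minimum. Among these, 5 were past 1 in ELA-EpiSC (4.61% of all genes were) and 1 in EpiSC (4.41% of all genes), and the median difference was 0.28, against 0.01 over all genes. Of the 17 folding and modifying genes past the minimum, 15 differed by less than 1. Fkbp10, a procollagen chaperone, read 12.40 in EpiSC and 13.76 in ELA-EpiSC (1.35), whereas Leprel1 (P3h2), a prolyl 3-hydroxylase, read 8.11 and 7.06 (-1.05). Serpinh1, the collagen chaperone Hsp47, read 14.35 and 14.84 (0.49), P4ha1, a prolyl 4-hydroxylase subunit, 8.86 and 8.07 (-0.78), and Plod3, a lysyl hydroxylase, 11.45 and 11.96 (0.51). The chaperones and hydroxylases did not share a sign, and P4ha1 kept its own under each alternative while that of P4hb (13.86 and 13.62) turned under the spike-in scaling.

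Genes for secretion and removal of the propeptides were higher in ELA-EpiSC in 10 of the 12 cases past the minimum, against 50.7% of all genes. Their median was 0.37. Pcolce, which enhances cleavage of the carboxy-terminal propeptide, read 11.09 and 13.09 (2.00). The protease that makes this cut, Bmp1, read 10.83 and 12.40 (1.57), and its relative Tll1 read 7.55 and 8.98 (1.43). The size of the last differences depended on the probe, since another probe of Bmp1 gave 0.20 and another of Tll1 gave -0.11. The sign of Mia3 and Adamts14, positive in the count, also depended on the probe, with another probe at -0.06 and -0.11. Sec24d, a coat component for procollagen export, was the gene of this list furthest towards EpiSC (10.08 and 9.62, differing by -0.47), and it turned positive under the spike-in scaling (0.06).

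Of the cross-linking and fibril assembly genes, 7 passed the minimum with a median of -0.13, which turned positive under the spike-in scaling (0.40) and the median scaling (0.04). Loxl4, a lysyl oxidase that starts collagen cross-links, had the largest difference of the 5 lists, with 6.37 in EpiSC and 9.49 in ELA-EpiSC (3.12), and its other probe gave 2.90. The other oxidases did not share it. Loxl1 read 8.11 and 8.67, Loxl2 read 11.63 and 11.44, and Lox, the founding member, was detected in ELA-EpiSC only at 6.25. Pxdn, the peroxidase that cross-links type IV collagen, read 14.31 and 13.72 (-0.58), and -0.05 under the spike-in scaling. Sparc, a collagen-binding protein abundant in parietal endoderm, read 16.98 and 16.84, and its probes lay between -0.58 and 0.49.

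Of the 10 receptor and uptake genes 8 were detected and 3 passed the minimum, Itgb1, the beta subunit of the collagen-binding integrins (11.67 and 12.20), the receptor kinase Ddr1 (12.01 and 12.41) and the uptake receptor Mrc2 (7.87 and 8.47), all between 0.40 and 0.60. Of the 7 breakdown genes 4 were detected. Mmp2 and Mmp14 were level within 0.19, while Mmp9, a gelatinase, was dim in EpiSC at 6.36 and read 7.90 in ELA-EpiSC (1.54), with a mean below the minimum. The collagenases Mmp8 and Mmp13 were not detected on either array.

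**Figure D4:**
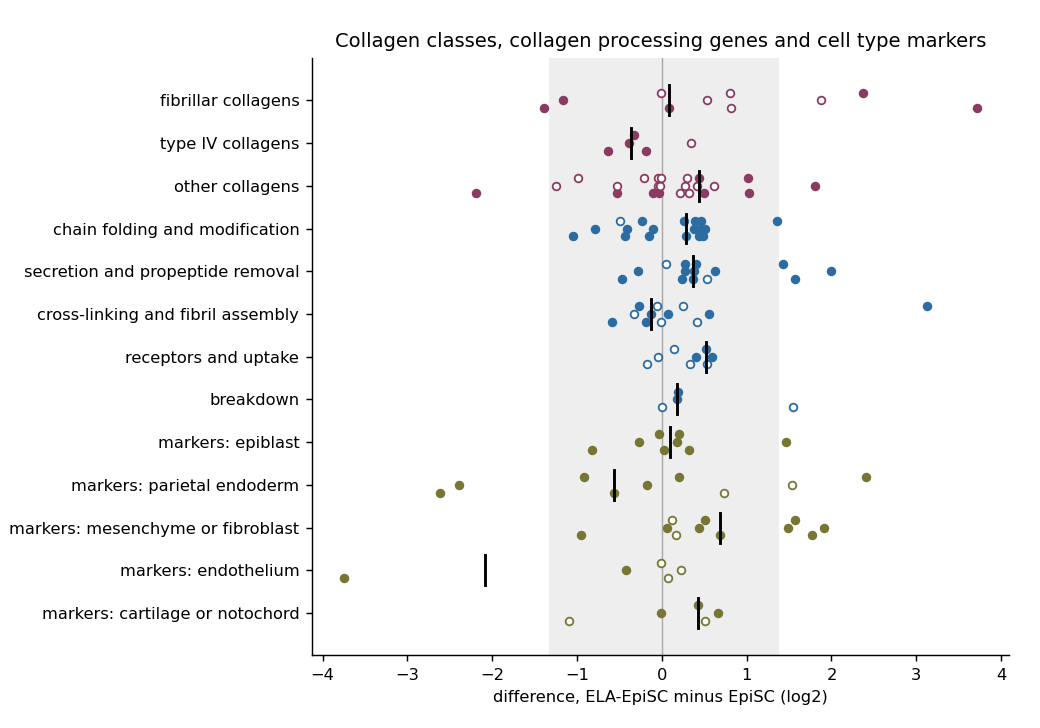
Difference between the arrays (log2, ELA-EpiSC minus EpiSC) of each detected gene of the 3 collagen classes (purple), 5 lists of collagen processing genes (blue) and 5 lists of cell type markers (olive); filled circles passed the minimum mean level of 7.5, black bars are medians over those, and the grey band holds the central 95% of all genes (-1.31 to 1.37). Col1a1 at 3.72 and Loxl4 at 3.12 lie furthest to the right, and the endothelial marker Vwf at -3.75 furthest to the left.

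Collagens are made by many cell types, and in pooled RNA fewer cells of a type and less RNA per cell cannot be told apart. Markers of 5 cell types were therefore read beside the collagens, and their part in the collagen differences was not tested. Epiblast markers were detected in 8 of 8 cases, with a median difference of 0.10, which turned negative under both scalings to the 75th percentile. Their summed level was 18.19 in EpiSC and 17.99 in ELA-EpiSC (log2 of the sum over the list), of which Dnmt3b, a DNA methyltransferase (17.07 and 16.25), made up 46.0% and 29.9%. Pou3f1, a neural and epiblast factor, was higher in ELA-EpiSC (12.56 and 14.02).

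All 11 mesenchyme and fibroblast markers were detected, and 4 of the 9 past the minimum were past 1 in ELA-EpiSC, the direction of Col1a1, Col3a1 and Col5a1. Among all genes past the minimum this share was 4.61%. A difference above 0 was seen in 8 of the 9, against 50.7% of all genes, and their median difference was 0.68. The summed level of the list was 14.52 in EpiSC and 16.06 in ELA-EpiSC, of which Tagln alone made up 63.4% and 82.0%. Pdgfra read 7.98 and 9.75 (1.77), Tagln 13.86 and 15.78 (1.91), S100a4 7.62 and 9.19 (1.57) and Snai2 7.18 and 8.68 (1.49). The other markers of the list differed by less than 1. Acta2 read 12.15 and 12.84, Pdgfrb 8.01 and 8.52, and Twist1 9.18 and 9.62, each higher in ELA-EpiSC. Thy1 was level at 10.12 and 10.17, Prrx1 was dim at 7.05 and 7.17, and Fbln2 was higher in EpiSC (10.33 and 9.38). Postn, a fibroblast matrix protein, was detected in ELA-EpiSC only, at 6.33 against 6.16 in EpiSC, at least 1.12-fold higher. Its difference turned negative under the 75th percentile scaling after normexp (-0.15).

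The 9 parietal endoderm markers, read beside type IV collagen, were all detected and went both ways. Pth1r (11.77 and 9.16, differing by -2.61) and Gata4 (12.10 and 9.72, differing by -2.39) were higher in EpiSC. Fst was higher in ELA-EpiSC (10.17 and 12.57, differing by 2.40), as was the dim gene Thbd (6.44 and 7.98, differing by 1.53). The median of the 7 past the minimum was -0.56 and the summed level was 14.90 in EpiSC and 14.35 in ELA-EpiSC, of which Sox17 (13.57 and 12.65) made up 39.9% and 30.8%.

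Of the endothelial markers, Tie1 and Emcn were not detected, and only Vwf and Kdr passed the minimum. The dim genes Cdh5 (6.29 and 6.28), Pecam1 (7.38 and 7.45) and Tek (6.26 and 6.48) differed little. Vwf read 10.98 in EpiSC and 7.23 in ELA-EpiSC (-3.75). Kdr, which is also made outside endothelium, read 12.72 and 12.29, while another of its probes gave 1.49. The summed level of the list was 13.15 and 12.43, of which Kdr made up 74.3% and 91.1%. Of the cartilage and notochord markers, read beside types II, IX and XI, Sox6, Hapln1 and Noto were not detected, and the summed level was 15.02 on both arrays, of which Sox5 (14.98 and 14.97) made up 97.3% and 96.6%. Sox9, which drives Col2a1 in cartilage, read 8.63 and 9.29, opposite in sign to Col2a1, while Matn1, a cartilage matrix gene, was dim and higher in EpiSC (7.91 and 6.82, differing by -1.09). Acan, of the same list, was higher in ELA-EpiSC (7.29 and 7.72, differing by 0.43), as was the dim gene Shh (6.89 and 7.41, differing by 0.51). The median of the 3 past the minimum was 0.43.

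The choice of scaling bore on the smaller differences. The median difference of all genes was 0.54 under the spike-in scaling and 0.15 under the median scaling, against 0.01. The spike-in scaling adds a constant and leaves the order of the collagens as it was, but 12 of the 38 detected members turned sign under the spike-in scaling and 16 in at least 1 alternative, each with a reported difference under 1 in size.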

How the data were processed

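RNA of EpiSC and ELA-EpiSC was hybridised by the authors to 2 one-colour Agilent SurePrint G3 mouse arrays, 1 per group. Per the labels 50 ng of RNA was labelled with Cy3. The deposited scanner files hold linear spot intensity before normalization, made with Feature Extraction 10.7.3.1 per the file headers (9.1 in the submitters' processing notes), with probe positions on mm9. The authors also deposited log2 values per probe, background-corrected and quantile normalized with limma, which served as an alternative.

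Mean spot intensity was corrected with the median local background in limma 3.58.1 (R 4.3.3) by the normexp method (offset 50), with all spots in the fit. Control spots were removed, the arrays were quantile normalized on the log2 scale, outlier spots marked by Feature Extraction were left out (158 on the EpiSC array, 117 on the ELA-EpiSC array, none of a collagen probe), and spots of a probe were averaged. A probe was called detected if the well-above-background mark was set for a share of 0.5 or more of its spots. Quantile normalization hides a shift shared by all genes, and the offset compresses dim ones. A gene detected on 1 array was compared with the dim probe's own value or the lowest detected signal there, whichever was higher, (5.89 for EpiSC, 6.11 for ELA-EpiSC) and given as "at least". Such a bound holds for the reported processing and not for each alternative.

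With 1 array per group no p-value was computed. Genes were counted past an absolute log2 difference of 1 at a mean of at least 7.5 over both arrays. A counted gene can therefore lie under 7.5 on its lower array, as Loxl4, Leprel1, Snai2 and Vwf of the lists also did. The procedure was tested on simulated data in which only genes bright on the EpiSC array were changed. That test does not bear on the dim collagens or on a shift shared by all genes. Named were all type I and IV chains, collagens past 1 or with a bound above 1.5-fold, their chain partners, and list members past 1 with up to 6 per list; the remaining collagens were added in brief. The members and lists were chosen with earlier results of these data known. Of 66 collagen probes with a RefSeq accession, 64 matched the RefSeq table (GRCm38.p6), all under the same symbol; that table was used for names, neighbours and upstream sequences only.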

Additional observations from a re-analysis of the deposited data

How the results depend on the processing

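No paired analysis was possible because the design has 1 array for each kind of cell. The counts (5 collagens past 1 in ELA-EpiSC and 3 in EpiSC) became 1 and 0 at a threshold of 2.5 and 2 and 1 at a minimum mean of 9. The first was 3 under scaling to the 75th percentile after normexp, and the second was 1 under the spike-in scaling. Scaling to the median after normexp gave median differences of 0.12 for all collagens, 0.31 for fibrillar, -0.18 for type IV and 0.65 for other collagens. The spike-in scaling gave 0.46, 0.61, 0.17 and 0.97, which turned the sign of type IV. The median of all collagens, reported as -0.07, turned positive under both scalings. The fibrillar median was -0.033 with the processed signal and 0.53 with neither detection filter nor minimum, where the median of other collagens turned to -0.017. With a minimum mean of 9 the type IV median was -0.48. Taking all detected collagens without the minimum, an alternative chosen after seeing the data, gave medians of 0.038 for all, 0.67 for fibrillar and -0.0053 for other collagens. The alternative of leaving out marked spots before normalization was also chosen after seeing the data and moved none of these 6 results beyond the limits used. The remaining 84 values of the 6 results stayed within 1.5 times the count or within the spot SD of 0.10. No named gene past 1 changed sign in any alternative. Low signal limits 20 of the 38 members, whose mean was under 7.5.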
